A study of Mus musculus with 5 samples.

Results

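The CD200 receptor gene cluster on mouse chromosome 16 was described in 4C-seq reads of hybrid embryonic stem cells, allele by allele. The cluster was taken as the 40 windows of 5 kb whose start positions run from 44750000 to 44945000 (mm10), out of 545079 windows in the deposited table and 19632 on chromosome 16. The 4 members are Cd200r1 (chr16:44765736-44794977), Cd200r4 (chr16:44811650-44839150), Cd200r2 (chr16:44867097-44915840) and Cd200r3 (chr16:44943596-45058365), placed by RefSeq on GRCm38.p6, which is mm10 under another name. The windows hold Cd200r1, Cd200r4 and Cd200r2 whole, but only 6.41 kb, or 5.58%, of the 115 kb annotated for Cd200r3. They also hold 4 annotated pseudogenes, Gm5063, Gm19142, Gm5964 and Gm17928. The members were chosen by the deposited allele ratio: the running mean of the region is higher on the 129 allele than on the CAST allele, and so every allele ratio in it is given as a description, without a test.

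4C-seq records which parts of the genome were ligated to a chosen viewpoint, the bait, after formaldehyde fixation. Here the bait lay in the Dppa2/4 domain, and chromatin was cut with HindIII before ligation and with DpnII after it. The samples are 2 clones, A6 and E2, of a hybrid line with a 129 and a Mus castaneus (CAST) chromosome set, grown in 2i plus LIF. Both clones carry CRISPR deletions of the same 3 labelled intervals of chromosome 16 near the bait, so there is no undeleted hybrid line among the groups. In the windows lying wholly inside the second and the third interval, the 129 columns held 20 reads in all and the CAST columns 30245. The 129 allele is thus the deleted one there, and CAST is the other allele of the same cells. Without an undeleted hybrid line, deletion and strain cannot be told apart in a ratio of 129 to CAST, and neither was tested as a cause. No window lay wholly inside the first interval. Each clone is 1 library, and the labels do not say whether the clones came from separate experiments. The cluster lies 3.40 to 3.59 Mb from the centre of the bait gap, on the side of lower coordinates, a bait position that was not checked against the primers.

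CD200 receptors are immunoglobulin-family receptors of myeloid and some lymphoid cells. CD200R1 binds the membrane protein CD200 and lowers the activity of the cells that carry it, through the adaptor Dok2 and the Ras regulator RasGAP. The related receptors encoded by Cd200r4 and Cd200r3 are described in the mouse as partners of the activating adaptor DAP12, and Cd200r2 encodes a further receptor of the family. The genes arose by local duplication, and 4C measures nearness of their DNA to the bait, not their expression.

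The deposited values were RPM, reads of a window scaled to a total of 1000000 for 1 allele of 1 clone, averaged by the authors over 30 neighbouring windows, or 150 kb. Undoing this running mean gave whole reads for every value, with 1937280 and 2397572 reads on 129 in A6 and E2, and 1311580 and 1603247 on CAST. The reads that fell in a window itself are called own reads here. Since the columns differ in depth, own reads were also scaled to 1000000 recovered reads of their column, which is called own RPM. The 95% intervals given are Wilson intervals. They cover counting error only, as 4C reads that carry no molecular identifier cannot be counted as separate molecules.

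Promoter sequences of Cd200r4, Cd200r2 and Cd200r3 are shown from RefSeq (GRCm38.p6, 250 bases before to 50 after a transcript start, all on the plus strand), because a 4C read starts at a cut site and because copies that are alike are hard to tell apart. Capitals mark AAGCTT, the HindIII site, and GATC, the DpnII site. Both sites read the same on either strand. The start used for Cd200r4 lies 9.08 kb inside the gene as placed above, so its promoter and the window around it lie within the gene body. The promoter of Cd200r1 is not shown here.
Cd200r4, chr16:44820478-44820777: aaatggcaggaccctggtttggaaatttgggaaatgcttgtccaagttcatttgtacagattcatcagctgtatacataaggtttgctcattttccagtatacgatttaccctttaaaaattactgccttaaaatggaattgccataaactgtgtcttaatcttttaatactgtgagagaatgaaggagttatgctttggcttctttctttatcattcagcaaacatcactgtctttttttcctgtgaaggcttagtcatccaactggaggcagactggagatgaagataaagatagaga
Cd200r2, chr16:44866847-44867146: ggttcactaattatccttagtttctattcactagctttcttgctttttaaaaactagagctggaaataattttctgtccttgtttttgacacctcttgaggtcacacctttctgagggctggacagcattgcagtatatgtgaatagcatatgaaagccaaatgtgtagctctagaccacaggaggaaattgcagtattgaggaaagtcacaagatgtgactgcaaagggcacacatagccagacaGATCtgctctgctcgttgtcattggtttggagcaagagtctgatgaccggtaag
Cd200r3, chr16:44943428-44943727: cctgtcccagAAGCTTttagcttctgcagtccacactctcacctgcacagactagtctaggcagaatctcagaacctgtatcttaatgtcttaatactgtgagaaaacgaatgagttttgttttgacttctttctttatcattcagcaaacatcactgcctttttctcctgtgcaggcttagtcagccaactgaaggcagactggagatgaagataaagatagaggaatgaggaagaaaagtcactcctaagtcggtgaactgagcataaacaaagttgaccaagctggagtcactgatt

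The Cd200r3 promoter holds 1 AAGCTT, and those of Cd200r4 and Cd200r2 hold 0. The letters AAGCTT are in 7.45% of the 32851 promoters of this length, and GATC, found once in the Cd200r2 promoter, is in 48.0%. The window around the Cd200r3 promoter (chr16:44940001-44945000) had 52 reads on 129 in A6 and 240 in E2, against 227 on CAST in A6 and 200 in E2. The window around the Cd200r4 promoter (chr16:44820001-44825000) had 0 reads on 129 in both clones, against 19 on CAST in A6 and 109 in E2, and the upper 95% Wilson limit of the 129 share was 16.8% in A6 and 3.40% in E2. The window with the Cd200r2 promoter (chr16:44865001-44870000) had 0 reads in every column. Both promoter windows with reads were therefore on the CAST side after scaling for depth, while the running means around them were higher on 129.

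The promoters of Cd200r3 and Cd200r4 share a stretch of 156 bases, of which 140 are identical (89.7%). It is shown here with the bases that differ in capitals.
Cd200r3: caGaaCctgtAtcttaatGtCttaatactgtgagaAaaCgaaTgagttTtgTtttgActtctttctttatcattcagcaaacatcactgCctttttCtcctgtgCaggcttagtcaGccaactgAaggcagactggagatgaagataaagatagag
Cd200r4: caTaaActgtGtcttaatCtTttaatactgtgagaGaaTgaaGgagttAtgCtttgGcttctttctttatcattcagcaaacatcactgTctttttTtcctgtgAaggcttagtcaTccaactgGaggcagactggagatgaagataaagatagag
The best match of either to the Cd200r2 promoter without a gap was 17 bases long. Reads from copies that are alike may be placed at either copy, and values of windows with such reads are uncertain to that extent. The shared stretch itself holds neither AAGCTT nor GATC, and the 1 AAGCTT of the Cd200r3 promoter lies before it. The rest of these windows was not compared, and whether any reads were misplaced was not tested. The pseudogene sequences were not compared.

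In the deposited running means the cluster was a broad elevation of the 129 allele. The mean over its 40 windows was 52.4 RPM in A6 and 44.3 RPM in E2 on 129, against 15.0 RPM in A6 and 14.6 RPM in E2 on CAST. The log2 ratio of 129 to CAST was 1.80 in A6 and 1.60 in E2, or 1.70 ± 0.14 (SD, n = 2). Both 129 values lay above both CAST values in 40 of 40 windows, against 32.6% of 18505 windows of chromosome 16 with signal outside 50 kb of the bait. These 40 windows are not independent, since neighbours share 29 of the 30 windows that were averaged. The lowest 129 value in the cluster was 24.3 RPM in A6 and 26.3 RPM in E2, and the highest CAST value was 21.0 RPM in A6 and 23.2 RPM in E2, in the first window of the cluster.

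The elevation fell off towards both ends of the region. Just inside the lower limit, at chr16:44750001-44755000, 129 was at 24.3 RPM in A6 and 26.3 RPM in E2 and CAST at 21.0 and 23.2 RPM. Just outside, at chr16:44745001-44750000, 129 was at 24.3 and 26.3 RPM and CAST at 21.2 and 21.1 RPM. At the other limit the last window inside had 28.6 RPM in A6 and 29.1 RPM in E2 on 129 and 17.1 and 17.3 RPM on CAST, and the next window outside had 28.6 and 29.1 RPM on 129 and 15.8 and 15.2 RPM on CAST. All 4 of these windows had 0 own reads in every column. The limits therefore cut through running means that changed little from inside to outside.

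**Figure D1:**
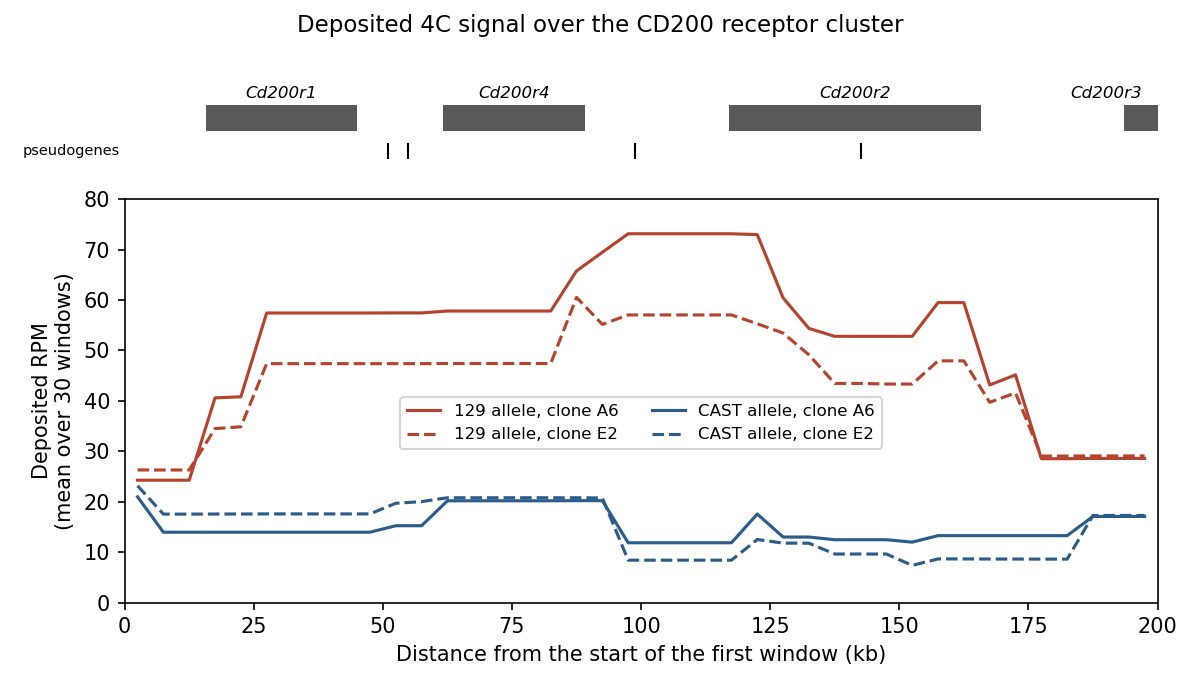
Deposited RPM, a mean over 30 windows, is plotted against distance in kb from the start of the first window, with the 4 genes as bars and the pseudogenes as ticks above. Both 129 lines (red; solid for clone A6, dashed for E2) lie above both CAST lines (blue) over the whole region, with 129 reaching 73.1 RPM in A6 and 60.5 RPM in E2.

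In own reads the cluster as a whole was also higher on 129. It held 4532 reads on 129 in A6 and 5061 in E2, against 1028 on CAST in A6 and 1206 in E2. That was an own RPM of 2339 and 2111 on 129 and 784 and 752 on CAST, a log2 ratio of 1.58 in A6 and 1.49 in E2 (1.53 ± 0.06, SD, n = 2). The clones lay close together on each allele, and the alleles did not overlap. The 129 share of the cluster's reads was 81.5% in A6 (80.5 to 82.5%) and 80.8% in E2 (79.8 to 81.7%), against 60.0% and 60.5% of all chromosome 16 reads. The cluster held 0.971% of the chromosome 16 reads of the 129 column in A6 and 0.855% in E2, and 0.330% and 0.312% of those of the CAST column.

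The windows behind these sums went in both directions. Own reads were found in 18 of the 40 windows, against 4888 of the 18505 chromosome 16 windows with signal outside 50 kb of the bait. Both 129 values lay above both CAST values in 9 of the 18, against 43.6% of the 4888 chromosome 16 windows with reads. Both CAST values lay above both 129 values in 5 of the 18, against 29.0% over the chromosome. In the other 4 windows the alleles overlapped. Among windows with reads, the cluster was thus near the chromosome's own shares by this count. Over all windows with signal it had more of both kinds. Higher on 129 were 9 of 40, against 2132 of 18505 on chromosome 16, and higher on CAST 5 of 40, against 1417 of 18505. The 9 windows of 129 held 3566 reads in A6 and 4252 in E2 on 129, against 2 in A6 and 7 in E2 on CAST. The 5 windows of CAST held 136 and 254 reads on 129, against 824 and 1045 on CAST.

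Most windows with at least 10 reads in each clone had reads from 1 allele almost alone, in the cluster and on chromosome 16 as a whole. Among the 16 windows with at least 10 reads in each clone, 9 had at least 95% of their own RPM on 129 in both clones, against 39.3% of 3142 such windows on chromosome 16, and 2 had at least 95% on CAST, against 22.9%. The 3 windows with most reads over the 4 columns held 53.1% of the cluster's 129 reads in A6 and 48.6% in E2, and 0.0973% and 0.166% of its CAST reads. They lie at the end of Cd200r4, over the pseudogene Gm5964, and in Cd200r2. The Gm5964 window had the most reads of the cluster over the 4 columns, with 977 on 129 in A6 and 910 in E2, against 0 and 1 on CAST.

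The size of the cluster's ratio depended on such windows. Without the Gm5964 window, taken out because it had most reads, the log2 ratio of own reads was 1.22 ± 0.02 (SD, n = 2). As its reads were almost all on 129, the ratio had to fall, and 129 stayed higher. With every window that had reads counted once, the log2 ratio of the numbers of windows was 0.47 ± 0.38, not scaled for depth. These were 15 windows on 129 in each clone, against 9 in A6 and 13 in E2 on CAST. Over the whole table, too, more windows had reads on 129, 6.83% in A6 and 7.08% in E2, against 4.51% and 4.62% on CAST. With only the 5 windows in which each of the alleles had 10 or more reads over the clones, the log2 ratio of own reads was -0.71 ± 0.22, so that CAST was higher. This last setting was chosen after the data had been seen, and it removes by construction the windows with the most uneven reads.

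**Figure D2:**
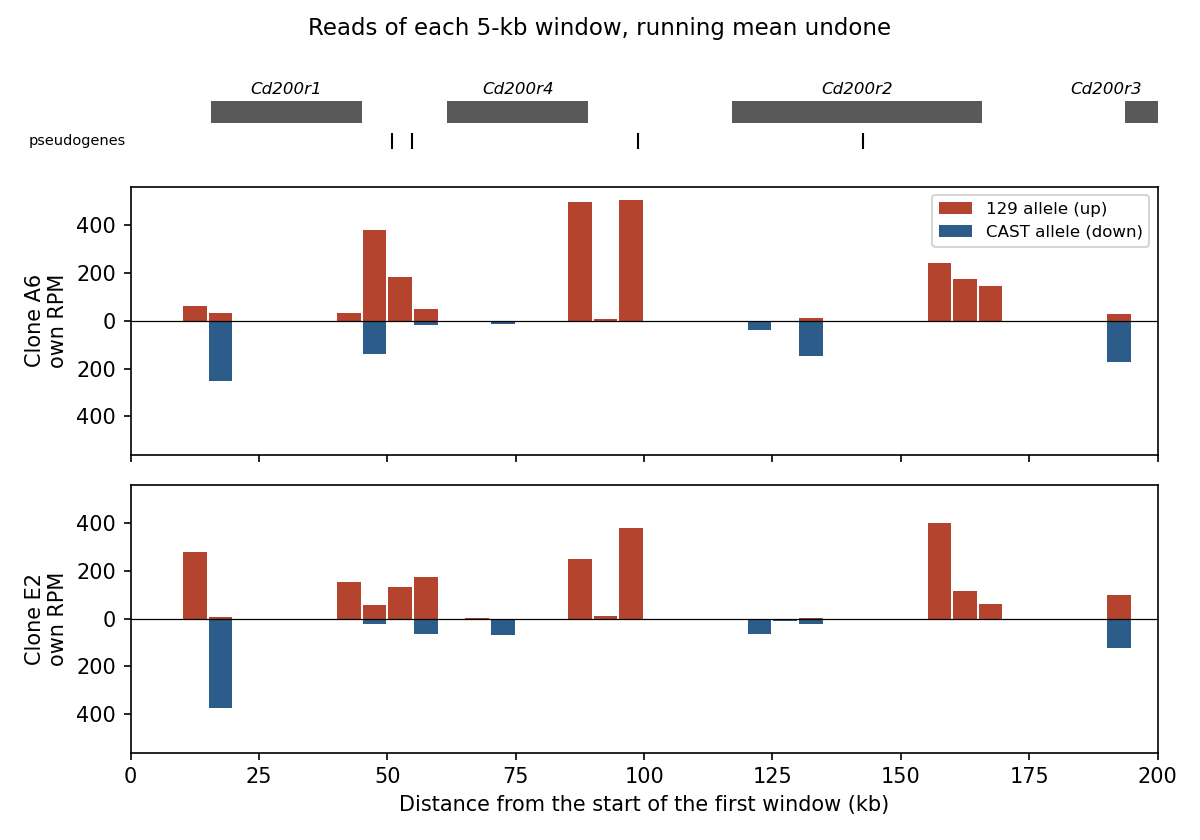
Own RPM of each 5-kb window are drawn upward for 129 (red) and downward for CAST (blue) against distance in kb from the start of the first window, for clone A6 above and clone E2 below. Most windows with reads have a bar on 1 side almost alone, and in both clones 129 bars stand without a visible CAST bar at the end of Cd200r4, over Gm5964 and in the last part of Cd200r2.

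Cd200r1, the gene of the inhibitory receptor, was higher on 129 in the running mean over the gene and 5 kb on both sides. It had 49.1 RPM in A6 and 41.6 RPM in E2 on 129, against 14.0 RPM in A6 and 17.6 RPM in E2 on CAST, a log2 ratio of 1.53 ± 0.41 (SD, n = 2). Its own reads over the same stretch were 979 and 1176 on 129, against 513 and 635 on CAST, and the log2 ratio of own RPM was 0.34 ± 0.04. The 129 values did not overlap the CAST values, but the ratio was much smaller than in the running mean. Over the gene without flanks the own reads were 123 and 379 on 129, against 332 and 599 on CAST, a log2 ratio of -1.62 ± 0.53. Cd200r1 was therefore higher on CAST in its own body and higher on 129 only with the flanking windows added. With the deposited position taken as a window's end, its own reads with flanks gave 0.68 in A6 and -0.20 in E2, and the alleles overlapped.

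Cd200r4, a gene of an activating receptor, was higher on 129 by both measures. Its running mean was 60.2 RPM in A6 and 50.0 RPM in E2 on 129, against 19.6 RPM in A6 and 20.7 RPM in E2 on CAST, a log2 ratio of 1.45 ± 0.25 (SD, n = 2). Its own reads with flanks were 1065 and 1044 on 129, against 40 and 214 on CAST. In own reads the log2 ratio was 4.17 for A6 and 1.71 for E2, so the clones shared the direction but not the size. Nearly all 129 reads of the gene body were in 1 window at its end, chr16:44835001-44840000, with 960 in A6 and 597 in E2, against 0 and 1 on CAST.

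Cd200r2 had the highest ratio of the 4 genes in the running mean. It had 57.9 RPM in A6 and 47.9 RPM in E2 on 129, against 13.1 RPM in A6 and 9.52 RPM in E2 on CAST, a log2 ratio of 2.24 ± 0.13 (SD, n = 2). Its own reads were 1103 and 1377 on 129, against 248 and 155 on CAST, which gave a log2 ratio of 1.59 for A6 and 2.57 for E2. The gene as a whole was thus higher on 129 in its own reads in both clones.

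Cd200r3, which in the mouse is known from mast cells and basophils, did not share that direction in its own reads. Its running mean over the whole annotated gene was 20.9 RPM in A6 and 17.6 RPM in E2 on 129, against 11.9 RPM in A6 and 16.0 RPM in E2 on CAST, a log2 ratio of 0.47 ± 0.48 (SD, n = 2), no larger than its spread. Its own reads were 579 and 737 on 129, against 440 and 689 on CAST. In own RPM this was a log2 ratio of -0.17 in A6 and -0.48 in E2, since the 129 columns hold more reads in all. In the running mean all 4 genes had both 129 values above both CAST values, against 28.1% of 655 protein-coding genes of chromosome 16 with signal. In own reads, with 5 kb on both sides, 3 of the 4 did, against 32.2% of the 487 genes with reads. The 3 include Cd200r1, which did not over the gene alone or with the window position taken as the end.

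**Figure D3:**
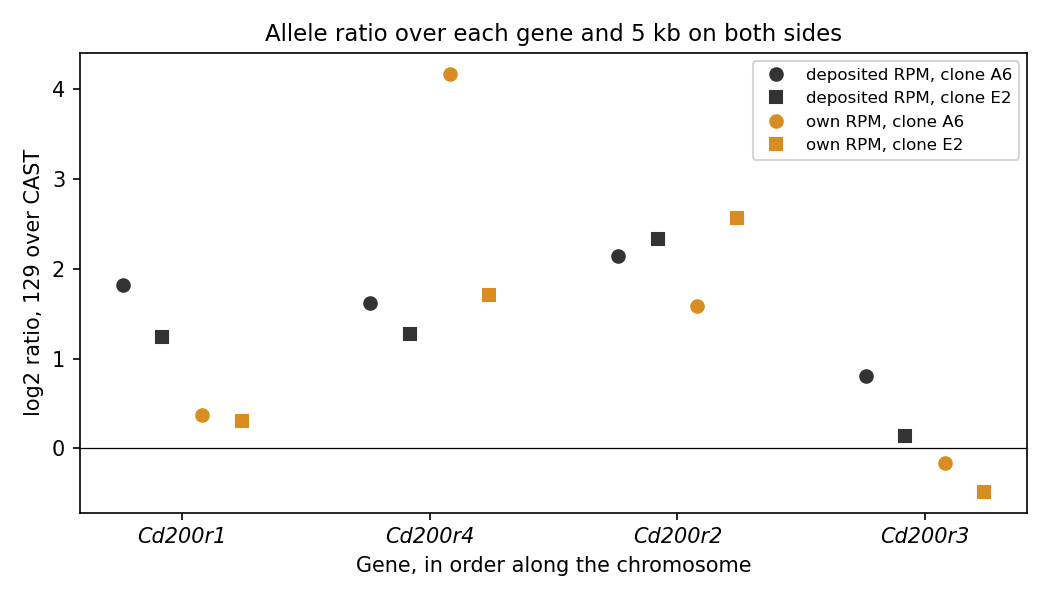
The log2 ratio of 129 to CAST over each gene and 5 kb on both sides is plotted by gene, from the deposited RPM (grey) and from own RPM (orange), with clone A6 as circles and clone E2 as squares. The ratio of Cd200r1 is 1.53 in deposited RPM and 0.34 in own RPM, Cd200r4 spreads widely between clones in own reads, and Cd200r3 lies below 0 in own reads in both clones.

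Inside the genes the alleles changed places along the sequence. Each gene was divided at its midpoint after the window values had been seen, so the following is a description of where the reads lie. Cd200r1 had reads in 1 window of its body on either side. The window before its midpoint (chr16:44765001-44770000) held 61 and 12 reads on 129, against 331 and 597 on CAST. The window after it (chr16:44790001-44795000) held 62 and 367 reads on 129, against 1 and 2 on CAST. The 129 share was 15.6% in A6 (12.3 to 19.5%) and 1.97% in E2 (1.13 to 3.41%) in the window before the midpoint, and 98.4% (91.5 to 99.7%) and 99.5% in E2 in the window after it.

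Cd200r4 and Cd200r2 showed the same order. Before its midpoint Cd200r4 held 0 and 9 reads on 129, against 19 and 109 on CAST, and after it 960 and 597 reads on 129, against 0 and 1 on CAST. Before its midpoint, at chr16:44870001-44885000, Cd200r2 held 23 reads in A6 and 2 in E2 on 129, against 247 and 155 on CAST. After it, at chr16:44905001-44920000, Cd200r2 held 1080 and 1375 reads on 129, against 1 and 0 on CAST. So the windows of these 3 genes at lower coordinates were read mostly on CAST, and those at higher coordinates almost only on 129. Cd200r3 had the opposite order. Before its midpoint it held 575 and 735 reads on 129, against 278 and 262 on CAST, and after it 4 and 2 reads on 129, against 162 and 427 on CAST.

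The highest 129 running mean of the cluster, by the mean of the clones, was at chr16:44845001-44850000, the Gm5964 window between Cd200r4 and Cd200r2. It was 73.1 RPM in A6 and 57.0 RPM in E2 on 129, against 11.9 RPM in A6 and 8.41 RPM in E2 on CAST. The value averages chr16:44770001-44920000, in which 15 of 30 windows had reads. On 129 the last windows of Cd200r2 gave 18.4 RPM of it in A6 and 18.9 RPM in E2, Gm5964 gave 16.6 and 12.5 RPM, and Cd200r4 with the window after it gave 16.5 and 8.69 RPM. No single gene therefore made up the 129 peak. On CAST the first windows of Cd200r2 gave 6.23 RPM in A6 and 3.20 RPM in E2, or 52.6% and 38.1% of the value, while on 129 they gave 0.39 and 0.028 RPM. The high running mean over the start of Cd200r2 on 129 thus came from windows around it and not from its own reads.

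Over all 40 windows, 96.5% of the averaged reads on 129 in A6 and 96.9% in E2 came from inside the cluster. Windows between the cluster and the bait gave 3.51% and 3.09% on 129, against 3.83% and 6.42% on CAST. Of the 40 windows with a higher running mean on 129, 9 were also higher on 129 in their own reads, 5 were higher on CAST, 4 overlapped and 22 had no reads.

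**Figure D4:**
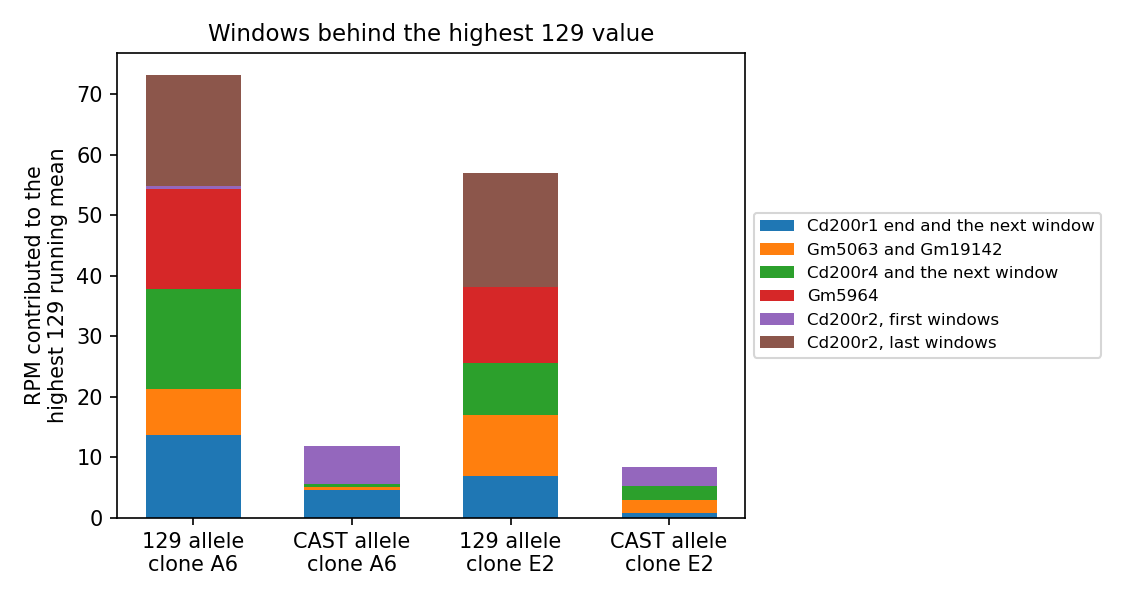
Stacked bars give the RPM that each group of windows contributes to the highest 129 running mean of the cluster, for the 129 and CAST column of clone A6 and then of clone E2. The 129 bars, of 73.1 and 57.0 RPM, are made of several stretches from the end of Cd200r1 to the last windows of Cd200r2, and the first windows of Cd200r2 (purple) are visible mainly in the CAST bars.

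The clones varied in single windows far more than in the sum. On 129, 14 windows had at least 10 reads over the clones, and their own RPM differed between A6 and E2 by a median of 2.97-fold and at most 13.6-fold. On CAST, 7 of 8 such windows had reads in both clones, with a median of 4.05-fold and at most 6.51-fold. The window after the end of Cd200r1 (chr16:44795001-44800000) held 738 reads on 129 in A6 and 134 in E2, against 181 and 34 on CAST. The sums over the cluster, by contrast, had an own RPM of 2339 and 2111 on 129 and 784 and 752 on CAST. A value of 1 window should be read with the wider spread.

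The cluster was then set beside the rest of the chromosome in segments of the same length, 200 kb. The segment on its side away from the bait, chr16:44550001-44750000, had 14.7 RPM in A6 and 14.0 RPM in E2 on 129, against 18.4 RPM in A6 and 28.4 RPM in E2 on CAST. The segment towards the bait, chr16:44950001-45150000, which holds most of Cd200r3, had 20.4 and 13.6 RPM on 129, against 11.3 and 14.5 RPM on CAST. In own reads the log2 ratio was -0.80 ± 0.77 (SD, n = 2) in the segment away from the bait and 0.37 ± 0.99 in the one towards it, against 1.53 ± 0.06 in the cluster. Neither neighbouring segment had both 129 values above both CAST values.

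On 129 the cluster was among the higher segments of the chromosome, and on CAST it was near its surroundings. Among the 19 other segments at 2.5 to 4.5 Mb from the bait, on either side, the median was 15.9 RPM in A6 and 15.6 RPM in E2 on 129, and 16.9 and 14.7 RPM on CAST. Of these 19, 1 was above the cluster on 129 in each clone, and 10 were above it on CAST in each clone. None of the 19 had a higher log2 ratio than the cluster in the running mean, and 2 had one in own reads. Over all other segments of chromosome 16 with a ratio, 35 of 464 were higher in the running mean and 63 of 449 in own reads. Both 129 values lay above both CAST values in 32.5% of 465 segments in the running mean and in 32.0% in own reads.

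**Figure D5:**
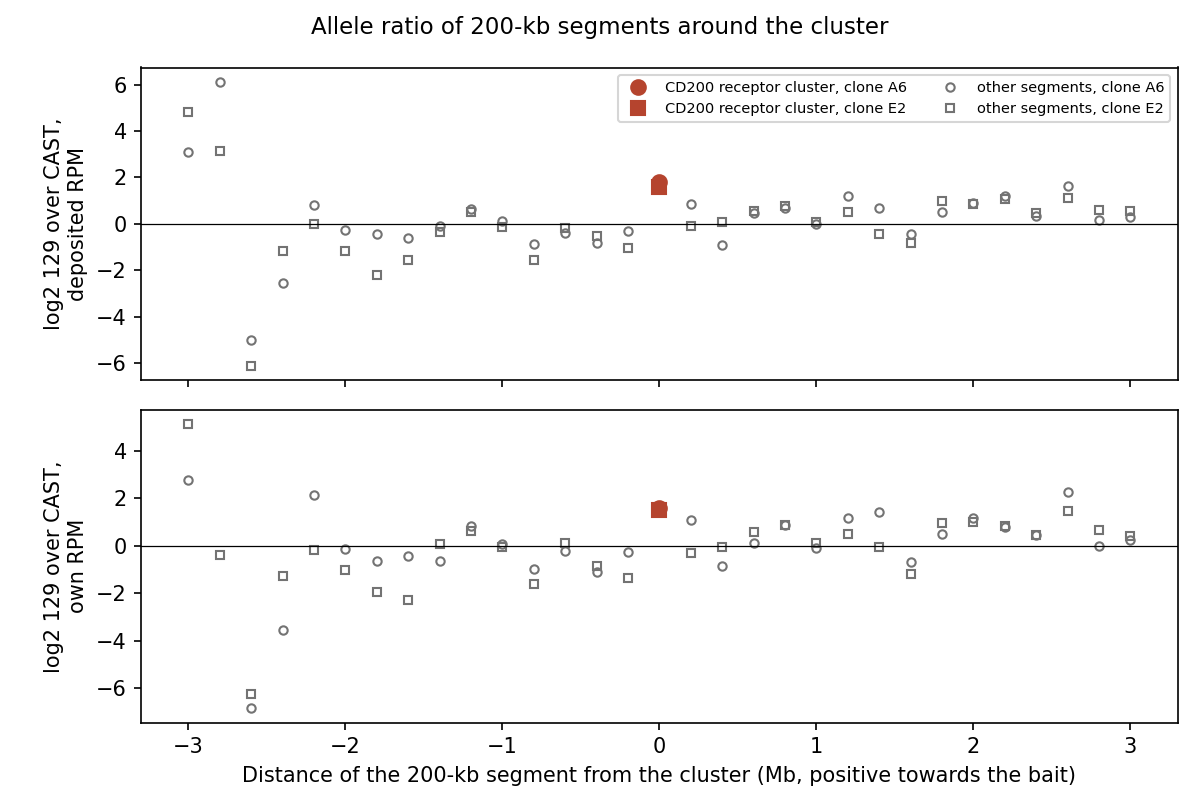
The log2 ratio of 129 to CAST of 200-kb segments within 3 Mb of the cluster is plotted against distance from it in Mb, for the deposited RPM above and own RPM below, with clone A6 as circles and E2 as squares. Segments without reads on an allele have no point. The cluster (filled, red), at 1.70 in the running mean and 1.53 in own reads, lies above its neighbours, and some segments farther away have higher or much lower ratios.

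Of the 12 other protein-coding genes within 500 kb, 9 had at least 10 own reads. In own reads 3 of these 9 were higher on 129 without overlap, against 32.2% of the chromosome's genes with any reads. They were Sidt1, Slc35a5 and Gm609, at log2 ratios of 0.28 ± 0.33, 1.26 ± 0.70 and 1.61 ± 0.93 (SD, n = 2). Boc, a co-receptor gene of Hedgehog signalling, was at -1.02 ± 0.04, with 658 and 1000 reads on 129, against 885 and 1378 on CAST. Cfap44, a gene of sperm flagella, was at -1.03 ± 0.43, and Spice1 at 0.09 ± 0.31. Ccdc80 split the clones, at 1.37 in A6 and -0.91 in E2, and Atg3, an autophagy gene, was at 0.67 ± 0.09. Atg3 adjoins Slc35a5 and shares windows with it once flanks are added. Both had 231 reads in A6 and 112 in E2 on CAST, so their ratios are not independent. Nepro and Gtpbp8, beside Cd200r1, held 0 own reads in every column. On the side away from the bait the own-read ratios thus ran from -1.03 for Cfap44 to 0.28 for Sidt1, against 1.53 for the cluster. Towards the bait they ran from -7.89 for Btla, described below, to 1.61 for Gm609, which was above the cluster.

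The ligand gene Cd200 lies on the same chromosome (chr16:45382111-45409060), towards the bait. It held 1 own read on 129 in each clone, against 0 in A6 and 1 in E2 on CAST, too few for a ratio. Its running mean was 21.8 RPM in A6 and 16.4 RPM in E2 on 129, against 18.5 RPM in A6 and 20.1 RPM in E2 on CAST, and came from its surroundings. Btla, the gene of another inhibitory receptor between the receptors and the ligand, held 1 and 8 own reads on 129, against 977 in A6 and 208 in E2 on CAST. Its running mean split the clones, at a log2 ratio of -1.47 in A6 and 0.51 in E2.

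Of the genes of receptor signalling on other chromosomes, 3 had no own reads. Among all 19600 protein-coding genes with signal, 11394 had own reads, so a gene without them was common. Tyrobp, which encodes DAP12, and the adaptor genes Dok1 and Dok2 held 0 own reads in every column. A count of 0 allows up to 3 reads of a column, for counting error only, which is an own RPM of 1.55 on 129 in A6 and 1.25 in E2, and 2.29 and 1.87 on CAST. Rasa1, which encodes RasGAP, held 18 and 5 own reads on 129, against 7 and 1 on CAST. Inpp5d, the gene of a phosphatase of immune signalling, held 214 and 40 on 129, against 4 and 32 on CAST. Of the 7 genes of the list, 2 had both 129 values above both CAST values in the running mean, Dok1 and Dok2, which had no reads of their own, against 34.8% of 19600 protein-coding genes of all chromosomes with signal. In own reads 0 of the 7 did, against 39.3% of the 11394 genes with reads. Tyrobp, Dok1 and Dok2, without reads, could not have been counted, and Cd200 held only 3 reads in all.

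Among 662 protein-coding genes of chromosome 16 over 500 kb from the cluster, the 5 whose deposited values over the 4 columns were most like those of the cluster were Olfr183, Clic6, Chmp2b, Myh15 and Tprg. Likeness was the Euclidean distance between centred log2(RPM + 0.5) values, from 0.15 for Olfr183 to 0.44 for Tprg, over 4 columns of 2 clones. Myh15, a myosin heavy chain gene on the other side of the bait, had 84.2 RPM in A6 and 103 RPM in E2 on 129, against 27.4 and 23.5 RPM on CAST. Olfr183, an olfactory receptor gene, had 8.69 and 6.83 RPM on 129, against 1.89 and 2.12 RPM on CAST.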

How the data were processed

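4C-seq was measured in 5 samples, of which the 2 hybrid clones were used here. The 3 inbred libraries were not used, since their table has mm9 positions, no alleles and another bait. Per the file headers, the deposited values are RPM per allele in 5-kb windows of mm10, made by the authors from reads split by SNPs. The column named svim was read as the 129 allele. Bowtie2, mm9 and mm10 are named in the submitters' processing notes, and the version of Bowtie2 is not given in the sources used here.

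Every deposited RPM value was a whole multiple of 1 step (within 0.01, 100% of values). Windows were taken as running means over 30 rows and undone, which gave 0 windows below 0. The alignment chosen left the fewest 129 reads, 0.0661%, in the second and the third labelled deletion, against 0.257% and 0.115% when moved by 1 window. Undoing the running mean was tested on simulated data, where all reads came back to their windows (0 of 400000 windows wrong). Ratios were taken within each clone without a pseudocount. For a gene, windows touching its body or the 5 kb beside it were used. Per its step, the deposited RPM was scaled by the authors to 1321005 to 2423179 reads per column.

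The members and lists were chosen with earlier results of these data known, so no test was made on them. Named were the 4 members, protein-coding genes within 500 kb with at least 10 own reads, 7 genes of the receptor pathway and the 5 genes most alike. Genes with 0 reads were named after their values were seen, and so were the pseudogenes. Alternatives were the scaling, the median, the pseudocount, filters on windows, the alignment, the gene flank, the window position and each clone left out. For the table as a whole, edgeR 4.0.16 in R 4.3.3, added after the data were seen, placed 585 of 1617 bins of 50 kb on chromosome 16 past an adjusted p of 0.05 on the recovered reads, 363 higher and 222 lower on 129, with clone as a block. On counts simulated for the same comparison with 2 clones, it recovered 0 of 200 bins given a log2 change of 2. A log2 change of 6, tried afterwards because of that, was recovered in 187 of 200 with 2 false calls, so bins with smaller changes may be missed. All bins were simulated at 1 dispersion, 0.485, so these numbers may not describe how the 585 calls behave. All other steps ran in Python 3.11.15 with pandas 2.3.3, numpy 2.4.6 and scipy 1.17.1, and figures were drawn with matplotlib 3.10.9.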

Additional observations from a re-analysis of the deposited data

How the results depend on the processing

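The log2 ratio of the cluster in the running mean, 1.70, stayed within its spread in all 4 planned settings with both clones, from 1.67 with a pseudocount of 0.5 RPM to 1.75 with the median of windows. It was 1.60 to 1.80 with 1 clone left out and 1.70 without a replicate block, that is, as a ratio of the means over the clones. In own reads the ratio of 1.53 became 1.45 over the 12 windows read on both alleles and 1.22 without the window with most reads. Counting each window with reads once gave 0.47, a ratio of numbers of windows that is not scaled for depth. With at least 10 reads on each allele, a setting added after the data were seen, the ratio of own reads was -0.71, the opposite direction. With 1 clone left out it was 1.49 to 1.58. It did not change when the alignment was moved by 1 window, because the windows at the limits hold no reads. The counts of 40, 9 and 5 windows were the same in every setting tried. With the running mean undone, Cd200r3 was at -0.33 in place of 0.47 at every flank and with the window position taken as the end, and Cd200r1 at -1.62 in place of 1.59 over the gene alone. Cd200r1 was at 0.24 with the window position taken as the end, where the clones went opposite ways, at 0.68 in A6 and -0.20 in E2, and the alleles overlapped. The other settings kept the sign of each gene's mean. The cause of these changes was not tested. The depth limits ratios at windows with few CAST reads, and 2 clones limit every SD.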

Other observations

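Windows read well on both alleles behaved unevenly between the clones. Of the 4 windows of the cluster with at least 10 reads in every column, 2 kept the same 129 share while their reads changed in level. At chr16:44795001-44800000 the 129 share was 80.3% in A6 and 79.8% in E2, although E2 had 0.147 of the A6 level on 129 and 0.154 on CAST. At chr16:44805001-44810000, over the pseudogene Gm19142, it was 81.4% in A6 and 79.8% in E2, while E2 had 3.62 times the A6 level on 129 and 4.05 times on CAST. The other 2 windows changed in share: at chr16:44765001-44770000 in Cd200r1 it was 15.6% in A6 and 1.97% in E2, and at the Cd200r3 promoter 18.6% and 54.5%. On chromosome 16, 141 of 724 such windows (19.5%) had shares within 5 percentage points of each other in the clones, and the median difference was 19.5 points. Of the 724, 163 changed in level at least 3-fold the same way on both alleles, as in the first 2 windows here. Of the 163, 92 (56.4%) were within 5 points, with a median difference of 4.39 points. Asking both alleles to change the same way favours windows that keep their share, so part of the higher percentage is built in. The first 2 windows here were thus not unusual among windows picked in that way.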
